A study of Mus musculus with 6 samples.

Results

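Among the genes whose transcripts were lowest in MycGFP positive cells relative to MycGFP negative cells of mouse T-cell leukaemia, 9 encode proteins of membranes, cell polarity and cell surface signalling: Ston2, Tm4sf5, Patj, Xkrx, Gabbr1, Zfyve28, Ramp3, Camk2n1 and Adamts6. They are 9 of 18193 genes measured and were represented by 18 of 34945 probe sets with 1 gene symbol. The genes were chosen because they were among the largest falls, so their lower level in MycGFP positive cells is what selected them, and it is described here without a test. The name of the group fits most of its members as background knowledge has them, but Camk2n1 encodes a soluble kinase inhibitor and Adamts6 a secreted protease.

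The leukaemia was driven by an activated NOTCH1 receptor (genotype Notch1[delta]E mycGFP, strain C57BL/6, age 12 weeks), in cells whose c-Myc carries a GFP reporter. Both groups were CD25+ Notch1-deltaE+ splenocytes of congenic recipients, taken 4 weeks after transplantation and sorted by mCherry and GFP: MycGFP positive cells on 3 arrays and MycGFP negative cells on 3 arrays. The design describes 3 independent leukaemias, each sorted by GFP, so all 6 samples carry the activated receptor, the reporter and the transplantation, and no untransplanted or normal thymocyte sample is compared here. Total RNA, 5 ng a sample, was amplified before it was labelled. The labels do not state which arrays came from the same leukaemia, and the p-values below measure the spread between these sorted samples.

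Ston2 and Zfyve28 belong to the machinery that takes receptors from the cell surface into endosomes. Clathrin adaptors pick the cargo, and proteins with FYVE domains read a lipid of the early endosome. Patj is a scaffold of the Crumbs complex, which with the Par and Scribble complexes sets apart the regions of a polarised membrane. In T cells the Par and Scribble proteins are known from migration and from division after contact with an antigen presenting cell. Gabbr1 and Ramp3 serve G protein-coupled receptors, and Camk2n1 restrains a calcium and calmodulin dependent kinase.

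Median intensities lay between 30.5 and 32.7 on the 6 arrays, and values below them may be background. Myc, whose protein the sort selected on, had intensities of 2628, 3390.5 and 2274 on MycGFP positive arrays 1 to 3, against 801, 1135 and 1303 on MycGFP negative arrays 1 to 3. The T cell markers were bright, with Cd3e at 9626 to 10939.6 in MycGFP positive and 11704 to 13390.0 in MycGFP negative cells. Their sum over 9 of 10 markers was 47039 to 50949.7 on positive and 63223 to 67377 on negative arrays, and Cd4 was lower in MycGFP positive cells (limma adjusted p = 0.0170). Of 9 lists of other cell types, 8 had sums that overlapped between the groups. The exception was the NK cell list, 4 of 5 measured, with 6026 to 7951 on positive and 4976 to 5521 on negative arrays, where Gzma was the brightest gene and made most of the sum (log2 difference 0.44). The other readable NK markers were Klrd1 at -2.50 and Nkg7 at -0.73, neither of which passed, and Ncr1 lay below the median on all arrays. The neutrophil list, 6 of 7 measured, stood apart on the arrays numbered 2, at 3101 on the positive and 12842 on the negative one, against 136 to 1158 on the other four. The Gapdh control probe sets had a 3' to 5' ratio of 1.48 to 1.58 on positive and 1.58 to 1.89 on negative arrays, and those of actin 1.72 to 1.85 on positive and 1.54 to 1.87 on negative arrays. The part of these differences in the results below was not tested. In bulk samples a smaller share of cells with a transcript and less of it in each cell cannot be told apart.

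The sequences before the transcription start are shown for the members whose window of 250 bases lies wholly outside the annotated gene: the largest falls, Ston2 and Tm4sf5, and the receptor gene Gabbr1. They are RefSeq sequences of GRCm38.p6, 5' to 3' on the strand of the gene. Capitals mark matches to CAGGTG, the E-box of E proteins and ZEB factors, and to TGGGAA, the core read by the NOTCH partner RBPJ, on either strand.
Ston2, chr12:91786437-91786686, minus strand: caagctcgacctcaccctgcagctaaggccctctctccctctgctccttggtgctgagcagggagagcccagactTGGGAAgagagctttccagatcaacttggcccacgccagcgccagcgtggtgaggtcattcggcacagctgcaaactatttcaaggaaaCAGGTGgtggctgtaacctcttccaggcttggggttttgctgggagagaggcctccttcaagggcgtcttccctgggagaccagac
Tm4sf5, chr11:70505024-70505273, plus strand: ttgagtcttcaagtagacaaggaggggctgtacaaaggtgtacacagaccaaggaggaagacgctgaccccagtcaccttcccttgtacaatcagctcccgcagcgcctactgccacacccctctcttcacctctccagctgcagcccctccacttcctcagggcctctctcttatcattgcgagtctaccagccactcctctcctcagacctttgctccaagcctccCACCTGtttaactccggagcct
Gabbr1, chr17:37045716-37045965, plus strand: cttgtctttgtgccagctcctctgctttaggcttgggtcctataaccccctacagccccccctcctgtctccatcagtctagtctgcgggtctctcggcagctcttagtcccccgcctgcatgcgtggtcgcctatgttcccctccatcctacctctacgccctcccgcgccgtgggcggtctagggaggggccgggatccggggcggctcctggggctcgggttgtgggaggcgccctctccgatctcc
The Ston2 window held 1 match to each of these motifs, the Tm4sf5 window held 1 CAGGTG on the opposite strand, and the Gabbr1 window held none. The table of promoters had 9 windows for 7 of the 9 members, and the motifs were searched in all of them and in the windows of all 32851 listed starts. CAGGTG was found in 5 of the 9 windows, against 17.2% of all windows, and TGGGAA in 4, against 21.6%. AGATAA, the core read by GATA factors, was found for Xkrx alone, against 9.99% of all windows. CACGTG, the E-box bound by MYC with its partner MAX, was in none of the 9 windows and in 6.02% of all windows. The searched motifs do not overlap one another in these 3 windows, 3 of the 9 windows belong to Patj, and a match is a description of the letters and not a bound site.

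Ston2 encodes stonin 2, an adaptor that brings cargo to clathrin-coated pits. Its brighter probe set, 1435657_at, had intensities of 87.2, 52.0 and 152 on MycGFP positive arrays 1 to 3, against 3516, 2351 and 889 on MycGFP negative arrays 1 to 3. All 6 values were above the array medians, and the groups did not overlap, the lowest negative value being 5.86 times the highest positive value. The mean was 97.0 ± 50.6 in MycGFP positive and 2252 ± 1316 in MycGFP negative cells (SD, n = 3 each), a log2 difference of -4.46 and the largest fall of all 18193 genes. The second probe set, 1459153_at, read 17.0, 18.4 and 26.2 on positive arrays, against 26.6, 45.0 and 31.9 on negative arrays. It was dim, with negative array 2 alone above its array median, and its difference of -0.74 was small beside that of the first. Averaging both probe sets gave 6.06-fold lower, in place of 22.01-fold.

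Zfyve28 encodes a FYVE domain protein of endosomes that in human cells limits signalling by the EGF receptor. It read 182, 93.9 and 249 on MycGFP positive arrays, against 1561, 994 and 803 on MycGFP negative arrays. All 6 values were above the array medians, so both groups had a readable level. The means were 175 ± 77.7 in positive and 1119 ± 394 in negative cells (SD, n = 3 each), which is 6.64-fold lower in MycGFP positive cells as a ratio of geometric means.

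Tm4sf5, a multi-pass membrane protein of the L6 family that partners with integrins in liver cells, was the second largest fall. Its only probe set read 53.5, 20.02 and 30.4 on MycGFP positive arrays, against 1488, 859.6 and 241 on MycGFP negative arrays. Positive arrays 2 and 3 lay below their array medians, so the fall of 21.2-fold is measured against near background. The negative arrays themselves spanned a 6.18-fold range, the widest of the 9 genes. With 1 array left out the fold ran from 14.3 (without negative array 1) to 35.4 (without negative array 3). The log2 difference was -4.40.

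Xkrx encodes a membrane protein of the XK family, some of whose other members scramble membrane lipids. It read 706, 229 and 999 on MycGFP positive arrays, against 3698, 4347 and 4498 on MycGFP negative arrays. It had the narrowest spread of negative arrays and the widest of positive arrays among the 9 genes: the negative arrays lay within 1.22-fold of one another and the positive arrays spanned 4.37-fold. The means were 645 ± 389 and 4181 ± 425 in MycGFP positive and negative cells (SD, n = 3 each), 7.65-fold lower in positive cells, and 4.96-fold lower without positive array 2.

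Patj, also known as Inadl, encodes a scaffold with many PDZ domains that joins the Crumbs complex at tight junctions. It had 4 probe sets. The brightest, 1418984_at, read 33.9, 27.3 and 28.7 on MycGFP positive arrays, against 296, 405 and 222 on MycGFP negative arrays. The positive values lay near the array medians and the negative ones 6.55 times or more above the highest of them. A second probe set, 1440737_at, read 27.1, 37.1 and 43.9 on positive arrays, against 186, 191 and 191 on negative arrays. Here the negative arrays were nearly equal, at 189 ± 2.89 (SD, n = 3). The other two, 1442244_at and 1418983_at, read 9.65 to 15.0 and 8.49 to 19.9 on positive arrays, against 85.4 to 317 and 45.8 to 129 on negative arrays. The 4 probe sets were 10-fold, 5.34-fold, 12.9-fold and 5.58-fold lower in MycGFP positive cells, so they gave one direction and sizes that differed.

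Gabbr1 encodes the subunit of the GABA-B receptor that binds GABA, best known from neurons. Its brightest probe set, 1455021_at, read 102, 95.5 and 229 on MycGFP positive arrays, against 1053, 1639 and 449.8 on MycGFP negative arrays. The groups came closest to one another here among the members, since negative array 3 was only 1.97 times positive array 3. The mean was 142 ± 75.1 in positive and 1047 ± 595 in negative cells (SD, n = 3 each), 7.03-fold lower. A second probe set, 1437188_at, read 24.2, 19.0 and 19.5, against 85.9, 158 and 79.5 in the MycGFP negative cells. The remaining 2 were below the array medians on all 6 arrays, with differences of -0.52 and -0.23, and the mean over all 4 probe sets was 2.76-fold lower.

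Ramp3 encodes a single-pass protein that escorts the calcitonin receptor-like receptor to the surface and makes it an adrenomedullin receptor. It read 27.2, 32.2 and 28.7 on MycGFP positive arrays, against 296, 235 and 102 on MycGFP negative arrays. The positive values were tightly grouped at the level of the array medians, and negative array 3 was the lowest of its group. The means were 29.4 ± 2.55 and 211 ± 99.1 (SD, n = 3 each) in MycGFP positive and negative cells, 6.55-fold lower in positive cells. Its place was 12 among the falls that passed and 25 among the falls of all genes.

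Camk2n1 encodes an inhibitor of calcium/calmodulin-dependent protein kinase II. Its brighter probe set, 1456609_at, read 12.3, 11.8 and 14.0 on MycGFP positive arrays, against 168, 108 and 40.8 on MycGFP negative arrays. The positive arrays were below their medians and alike, so the fold of 7.13 stands against background. The other probe set, 1440455_at, was dim on all 6 arrays, at 12.6 to 12.8 on positive and 13.3 to 15.95 on negative arrays, and the mean of both probe sets was 2.90-fold lower.

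Adamts6 encodes a secreted metalloprotease that acts on the extracellular matrix and is needed for heart development in mice. Its brighter probe set, 1457548_at, read 7.61, 6.57 and 6.57 on MycGFP positive arrays, against 46.1, 174 and 30.5 on MycGFP negative arrays. Negative array 2 alone was far above the array median and negative array 3 was under it. The second probe set, 1437506_at, read 12.3, 8.24 and 9.73, against 62.6, 38.1 and 15.0 in the MycGFP negative cells, and there negative array 1 was the highest. The fold of the brighter one was 9.08, and 5.44 without negative array 2. With 16 added to each intensity before the log2, which damps dim signals, it was 3.58, and that of Camk2n1 was 3.80 in place of 7.13.

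**Figure D1:**
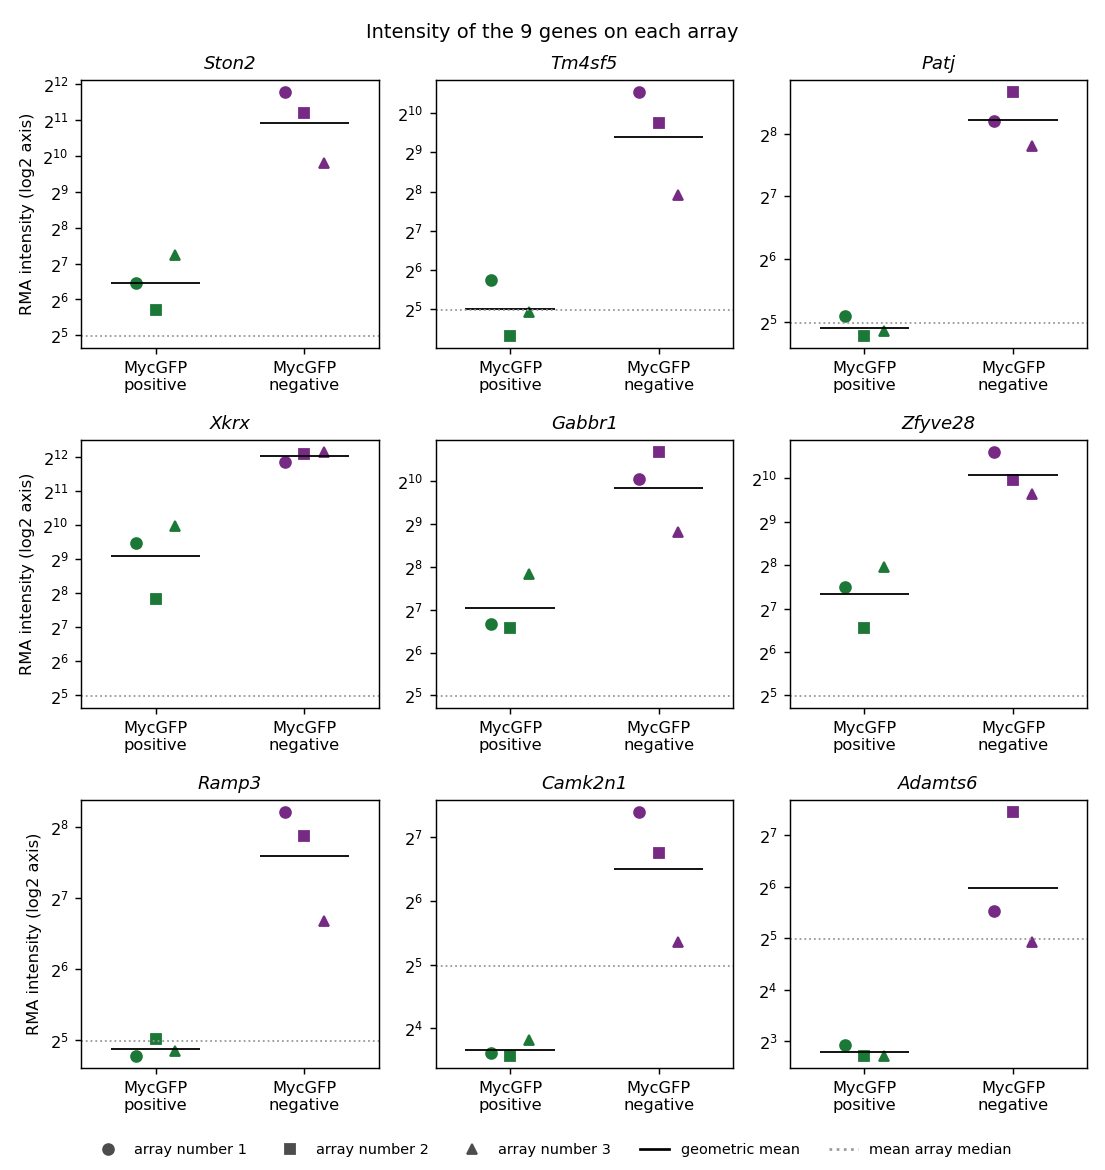
RMA intensity (log2 axis) of the brightest probe set of each of the 9 genes on the MycGFP positive (left, green) and MycGFP negative (right, purple) arrays. Symbols give the array number, bars the geometric mean of 3 arrays, and the dotted line the mean array median. For every gene the 3 positive values lie below the 3 negative ones, and for 8 of the 9 the triangle of array 3 is the lowest negative value.

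Over all 18 probe sets the groups did not overlap and the positive arrays were lower, which holds for 12.0% of all probe sets with a symbol. Since the genes were picked for this difference, the count supports nothing further. On 10 of the 18 probe sets all 3 positive arrays were below their medians, and on 3 all 6 arrays were. The median log2 difference of the 9 genes was -2.94, beside 0.01 over all 18193 genes. Among the falls that passed limma's test at an adjusted p under 0.05, which 1.51% of all genes did, the members held places 1 to 12 apart from Dhrs3, Tcf7l2 and Cd4. Just inside the limit stood Zfyve28 at 6.64-fold and Ramp3 at 6.55-fold lower, and just outside it Ccn6 at 6.49-fold, Rora at 6.38-fold, Tmem86b at 6.32-fold, Kdm5b at 6.29-fold and Pex11g at 6.23-fold lower, so no gap in size separates the members from the next genes. Over all 18193 genes, passed or not, the members' places ran from 1 for Ston2 to 25 for Ramp3, so some larger falls did not pass. The members were chosen by their fall on these arrays, so their passing is no test of them.

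The 9 genes also shared a pattern within each group, given here as a description of the brightest probe set of each gene. On negative array 3 the intensity was the lowest of the negative arrays for 8 of the 9 genes, all but Xkrx. That array was the lowest for 31.9% of the 10567 genes with a mean above the mean array median, and for 48.9% of the other 266 falls that passed. On positive array 2 the intensity was the lowest of the positive arrays for 8 of the 9, all but Ramp3. For Adamts6 positive arrays 2 and 3 were tied. The shares here were 32.7% of the genes above the median and 31.6% of the other falls. Both held together for 7 of the 9 genes and for 9.52% of the genes above the median, while this joint share was not computed for the other falls. Negative array 3 had the highest Myc intensity of the negative arrays, at 1303, and positive array 2 the highest of the positive arrays, at 3390.5. With 3 arrays in a group this is an order of values, and it was not tested. For Camk2n1 and Adamts6 all 3 positive arrays were below their medians, so the order among them may be background. Other probe sets did not all keep these orders. Patj 1442244_at kept both, while positive array 1 was the lowest positive array in Ston2 1459153_at and in Patj 1440737_at and 1418983_at.

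Taking arrays of the same number together, the fall in the brightest probe set was smallest in number 3 for all 9 genes. That was so for 146 of the other 266 falls that passed, or 54.9%. Not every other probe set kept this: Gabbr1 1437188_at had its smallest fall in number 1, with a log2 difference of -1.83 against -2.03 in number 3. The median log2 difference of the 9 genes was -3.37, -4.10 and -2.17 in numbers 1, 2 and 3, while that of all genes was 0.05, 0.04 and -0.02. Ston2 was 40.3-fold, 45.2-fold and 5.86-fold lower, and Gabbr1 10.3-fold, 17.2-fold and 1.97-fold lower. Patj varied least, at 8.72-fold, 14.8-fold and 7.73-fold lower. For 7 genes number 2 gave the largest fall, and for the other two, Ramp3 and Camk2n1, number 1 did. The spread among the negative arrays, as the highest over the lowest value, had a median of 3.64 over the 9 genes and of 1.52 over the genes above the array median. Among the positive arrays these medians were 2.40 and 1.39, and neither spread was computed for the other falls that passed. Patj, Gabbr1 and Adamts6 were highest on negative array 2, which had the highest neutrophil sum, followed by positive array 2. Without negative array 2 their log2 differences were -3.10, -2.40 and -2.44, against -3.32, -2.81 and -3.18 with it.

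**Figure D2:**
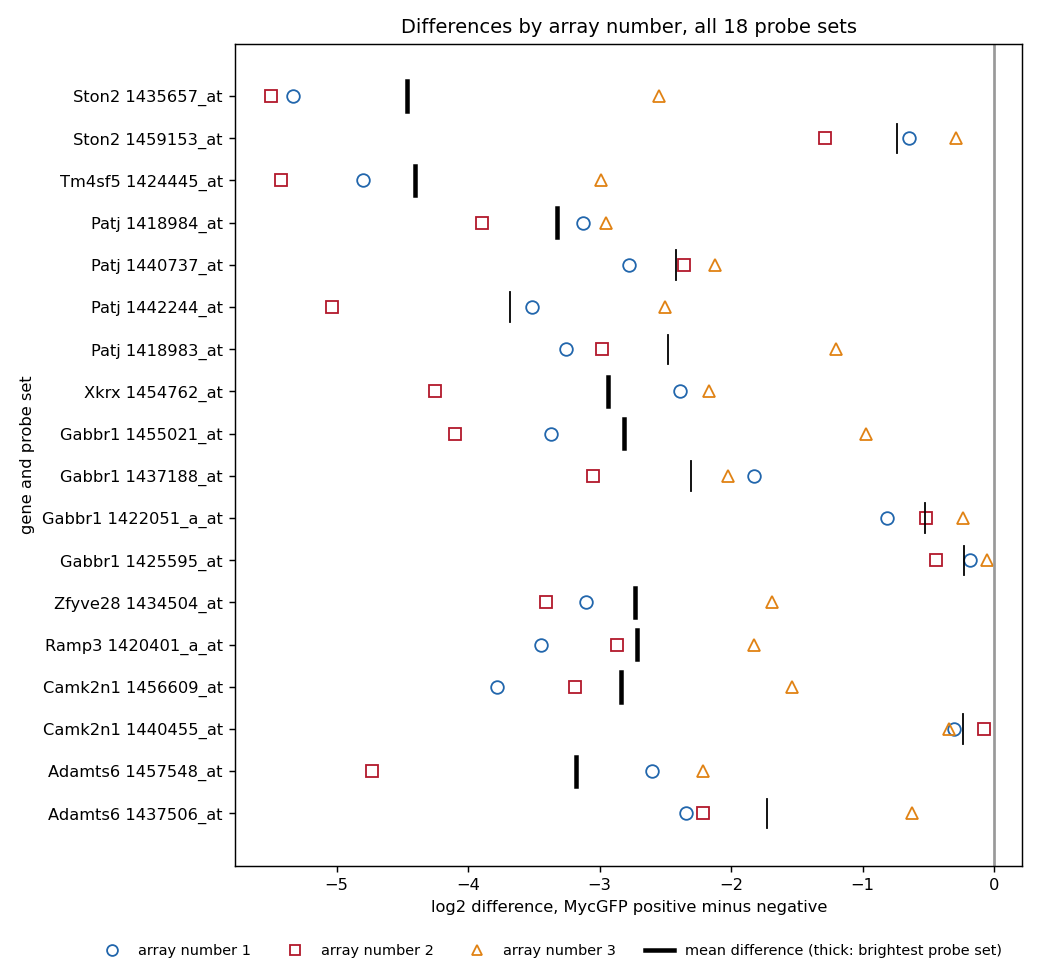
Log2 difference, MycGFP positive minus MycGFP negative, within each array number (open symbols) and between the group means (black bars, thick for the brightest probe set of a gene) for the 18 probe sets. All points lie left of 0, and for the 9 thick bars the orange triangle of number 3 is nearest to 0.

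The genes whose pattern over the 6 arrays was most like the mean standardised log2 profile of the 9 members were, among genes above the median, Fam120aos (Pearson r = 0.996), Camk1d (0.996), Sun2 (0.995), Mgat1 (0.994) and Lipe (0.994). The points share the group contrast, so such values are partly built in. Camk1d, a calmodulin-dependent kinase gene, read 625, 524 and 643 on MycGFP positive arrays, against 1439, 1532 and 996 on MycGFP negative arrays. Positive array 2 and negative array 3 were the lowest of their groups, as in the member profile that Camk1d was picked to resemble. Sun2, which links the nuclear envelope to the cytoskeleton, read 2307, 2272 and 2358, against 3813, 3724 and 3178 in the MycGFP negative cells. The falls of these 5 genes were 1.54-fold to 2.19-fold, far smaller than those of the members.

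The families and complexes around the members were then compared by limma, on lists that were, like the members, drawn up with earlier results of these data known. Of 161 measured genes on 9 lists, 7 were lower in MycGFP positive cells and 2 higher (limma, adjusted p under 0.05 over all genes). That is 5.59% of them, beside 6.13% of all genes, of which 4.62% were higher and 1.51% lower. Unadjusted p was under 0.05 for 14 lower and 10 higher genes. The median log2 difference over the lists was -0.03. By direction, 4.35% of the relatives were lower and 1.24% higher.

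**Figure D3:**
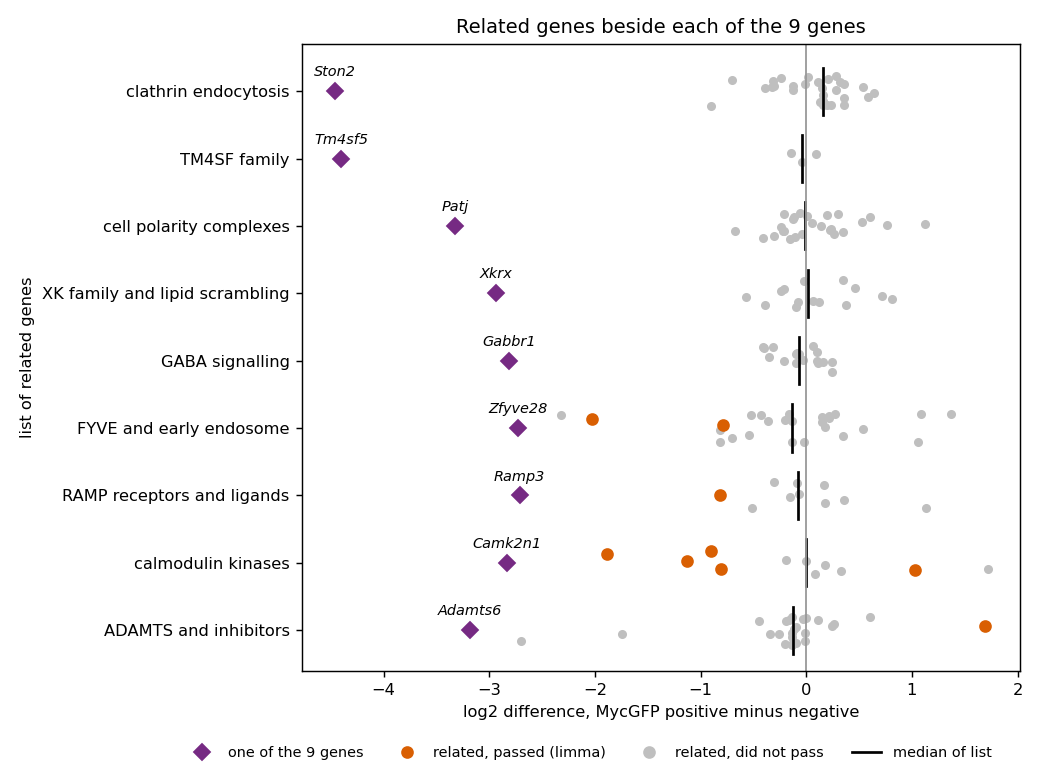
Log2 difference, MycGFP positive minus MycGFP negative, of each measured gene on 9 lists of relatives (circles, orange where limma's adjusted p was under 0.05), with the list's median (bar) and the member it belongs to (purple diamond). The medians lie between -0.13 and 0.15, while the members lie at -2.71 to -4.46. Orange circles stand on 4 lists.

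None of the 29 measured genes of clathrin endocytosis passed (limma), although unadjusted p was under 0.05 for 2 higher genes (0 lower), and their median log2 difference was 0.15. Ston1, the other stonin, read 12.9 to 18.8 on positive and 14.4 to 22.9 on negative arrays, so it was dim in both. The largest differences were those of the scaffold gene Itsn1, at -0.90, and Fcho2, which starts coated pits, at -0.70. In the brightest probe set of each, 1 array stood apart. Itsn1 read 1494 on negative array 3 and 38.7 to 94.2 on the other five, and without that array its difference was 0.72. Fcho2 read 1095 on negative array 2 and 98.7 to 155 on the other five, and without it the difference was 0.38. The second probe set of Fcho2 was lower on every positive array, at 53.8 to 69.1 on positive and 88.5 to 154 on negative arrays (log2 difference -1.04).

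Of 26 measured genes for FYVE proteins and early endosomes, 2 were lower and 0 higher (limma; unadjusted p was under 0.05 for 5 lower and 1 higher). Wdfy2, a FYVE and WD repeat protein of early endosomes, read 299, 319.9 and 401 on MycGFP positive arrays, against 1186, 2068 and 1071 on MycGFP negative arrays. It was 4.09-fold lower (log2 difference -2.03, SE 0.28, limma adjusted p = 0.0195), and it had 1 probe set. Rufy2, a RAB effector gene, was 1.72-fold lower (adjusted p = 0.0438), at 45.7 to 49.7 in MycGFP positive and 68.1 to 93.3 in MycGFP negative cells. Its other probe sets had differences of -0.63 to -1.65.

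None of the 26 measured polarity genes passed (limma), although unadjusted p was under 0.05 for 2 higher genes (0 lower), and their median log2 difference was -0.01. Mpp5, the Crumbs complex partner that binds Patj, read 234 to 312 on positive and 88.5 to 239 on negative arrays (log2 difference 0.76, adjusted p = 0.323). Amotl1, an angiomotin family gene, read 29.6 to 81.0 and 20.8 to 28.7 (1.12, adjusted p = 0.157). Mpdz, which resembles Patj in its PDZ domains, was dim, at 11.6 to 12.6 and 10.8 to 14.7. None of the 14 genes of the XK family and lipid scrambling passed either (limma; unadjusted p was under 0.05 for 1 lower gene, 0 higher). The flippase gene Atp11b read 2830.2 to 3005 on positive and 3332 to 5357 on negative arrays (log2 difference -0.57, adjusted p = 0.155), and Plscr1, a phospholipid scramblase gene, 126 to 309.7 and 57.7 to 201 (0.81, adjusted p = 0.507). The 3 measured TM4SF relatives, Tm4sf1, Tm4sf4 and Tm4sf20, lay below the mean array median, at 5.05 to 20.2 over all arrays, and 0 passed by limma, also at an unadjusted p under 0.05.

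None of the 17 measured genes of GABA signalling passed (limma), and unadjusted p was under 0.05 for 1 lower gene (0 higher). Gnai2, an inhibitory G protein gene, read 1619 to 1972 on positive and 2081 to 2499.9 on negative arrays (log2 difference -0.35, adjusted p = 0.217). Slc6a13, a GABA transporter gene, read 19.0 to 124 and 28.5 to 112 (-0.40, adjusted p = 0.848), and its difference was 0.33 without positive array 3. Gabbr2, the partner subunit of Gabbr1, was not analysed here.

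Of 10 measured RAMP, receptor and ligand genes, Ramp1 alone passed. Ramp1, which turns the calcitonin receptor-like receptor into a receptor for CGRP, read 991, 1174 and 1301 on MycGFP positive arrays, against 1953, 1874 and 2258 on MycGFP negative arrays. It was 1.76-fold lower (log2 difference -0.82, SE 0.16, limma adjusted p = 0.0397), well short of the 6.55-fold of Ramp3. Of its other probe sets one had a difference of -0.77 and one, dim on 5 arrays, of 0.75. Calcrl, the receptor that both escort, read 1390.3, 1268 and 971 on positive arrays, against 1911, 2142 and 1226 on negative arrays (log2 difference -0.52, adjusted p = 0.317). Ramp2 was dim, at 18.4 to 20.6 and 20.7 to 21.2. The ligand gene Adm differed more between array numbers than between groups, at 55.6, 364 and 1568 on positive arrays 1 to 3, against 30.4, 86.2 and 1160.1 on negative arrays 1 to 3.

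The calmodulin kinase list had the largest share of calls, 5 of 11 measured genes, with 1 higher and 4 lower, beside 6.13% of all genes. Its median log2 difference was nonetheless close to 0. Camk2a, the alpha subunit of the kinase that Camk2n1 inhibits, read 292, 247 and 309 on MycGFP positive arrays, against 514, 544 and 523 on MycGFP negative arrays. It was 1.87-fold lower (log2 difference -0.90, SE 0.14, limma adjusted p = 0.0231). Its 5 other probe sets had differences of -0.40 to -0.11, and the mean over all of them was -0.35 (adjusted p = 0.258). Camk1d was 2.19-fold lower (adjusted p = 0.0345), and its other probe sets had differences of -1.31 and -1.72. Camk1g, a related kinase gene, read 12.1, 11.6 and 21.6, against 65.7, 42.0 and 55.0 in the MycGFP negative cells, 3.69-fold lower (adjusted p = 0.0263) with all positive arrays below the median.

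Camk2n2, the second inhibitor of the same kinase, moved the other way from Camk2n1. It read 25.5, 33.6 and 19.7 on MycGFP positive arrays, against 12.8, 12.2 and 12.7 on MycGFP negative arrays, 2.05-fold higher (limma adjusted p = 0.0460). Only positive array 2 was above its array median. Camk4, named after its values were seen as the fifth of the calls, encodes a nuclear kinase of T cells and was 1.75-fold lower (adjusted p = 0.0465). It read 1603, 1730.2 and 2086, against 2888, 3619 and 2941 in the MycGFP negative cells, while its 4 other probe sets had differences of -0.77 to 0.04. Camk2g, another subunit, read 222, 314 and 586, against 76.3, 119 and 127 in the MycGFP negative cells (log2 difference 1.72, adjusted p = 0.0602), and was also named after its values were seen. Camk2d read 864 to 1259.8 and 902 to 1090.2 in MycGFP positive and negative cells, with overlapping groups.

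**Figure D4:**
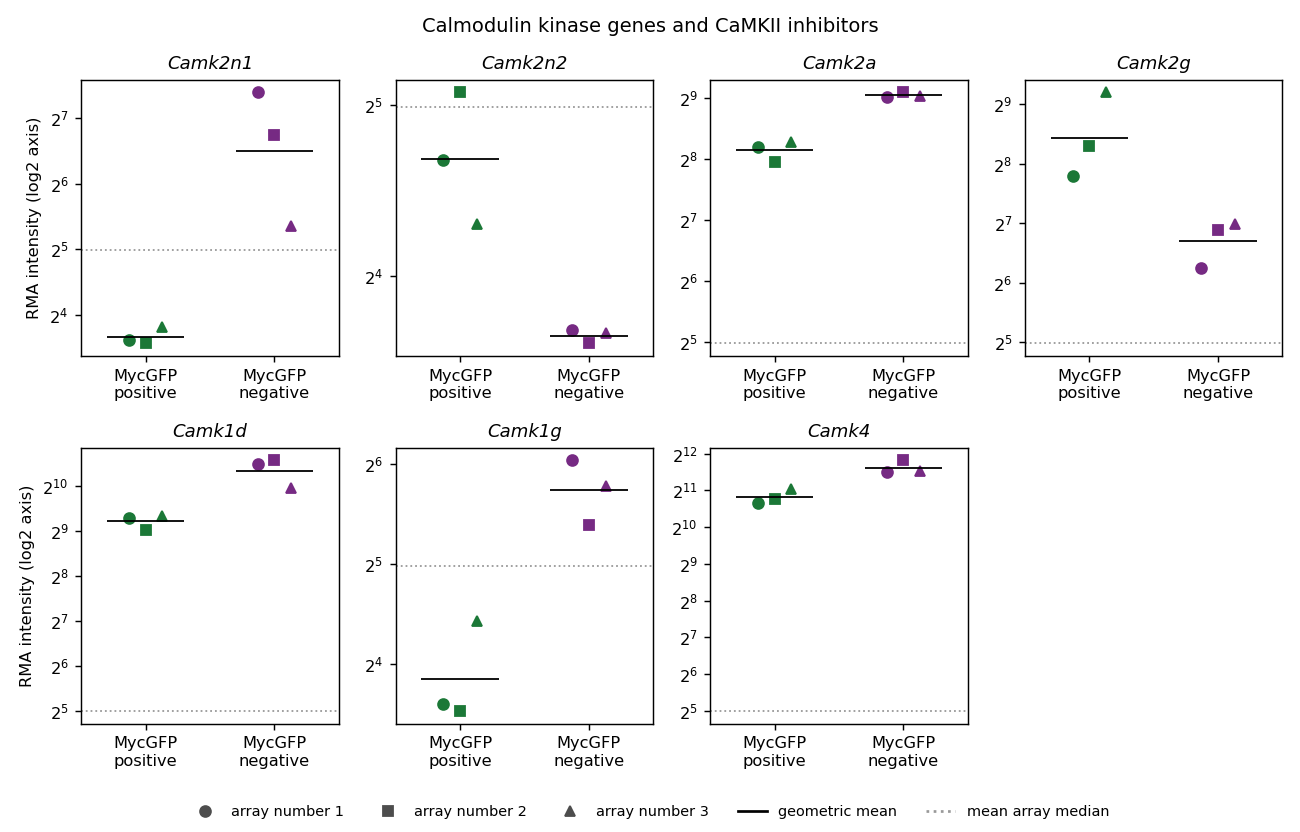
RMA intensity (log2 axis) of the kinase inhibitors Camk2n1 and Camk2n2 and of 5 calmodulin kinase genes on MycGFP positive (left, green) and MycGFP negative (right, purple) arrays, with geometric means as bars and the mean array median dotted. Camk2n1, Camk2a, Camk1d, Camk1g and Camk4 lie lower on the 3 positive arrays, and Camk2n2 and Camk2g lie higher.

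Of 25 measured ADAMTS proteases and their inhibitors, Adamts3 alone passed, and it was higher. Adamts3, a procollagen processing protease, read 62.7, 53.2 and 83.5 on MycGFP positive arrays, against 21.8, 23.3 and 16.4 on MycGFP negative arrays. It was 3.22-fold higher (log2 difference 1.69, SE 0.23, limma adjusted p = 0.0183), with the negative arrays below their medians. Its other probe set had a difference of 1.499, but there the groups overlapped, at 30.0 to 94.1 on positive and 15.6 to 32.1 on negative arrays. So this protease and Adamts6 had opposite differences. Timp3, an inhibitor of such proteases, was named after its values were seen. It read 10.6, 8.69 and 11.3, against 51.7, 303 and 18.3 in the MycGFP negative cells (log2 difference -2.70, adjusted p = 0.168).

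Whether these 9 relatives passed changed when 1 array was left out, which also leaves fewer arrays for the test (limma, adjusted p). The direction of the difference stayed the same for all 9 in each of these fits. Without positive array 1 or positive array 2 none of them passed, at adjusted p of 0.0635 to 0.124 and of 0.0625 to 0.151. Without positive array 3 Camk1g alone still passed and without negative array 2 Wdfy2 alone, the others being at 0.0606 to 0.128 and at 0.0574 to 0.129. Without negative array 1 there remained Wdfy2, Rufy2, Camk2a and Adamts3, and without negative array 3 Wdfy2, Camk2a, Camk1d and Adamts3, the others being at 0.0508 to 0.0873 and at 0.0587 to 0.0932. With the array number as a replicate block, Rufy2, Camk2n2, Camk1d and Camk4 no longer passed (adjusted p of 0.0571 to 0.0698). With the mean over all probe sets of a gene, Ramp1, Camk2a and Camk4 did not pass (0.0937 to 0.587), and with a trended robust variance Rufy2 and Camk2a did not (0.0575 to 0.0780).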

How the data were processed

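RNA of sorted cells was measured on 6 Affymetrix arrays. Each probe set has 1 deposited intensity per array, computed with RMA per the submitters' processing notes. RMA equalises the arrays and so hides any difference in RNA content of the cells. Of 45101 probe sets, 64 controls were left out, 932 had several gene symbols and were not named, 9160 had none, and 34945 had 1 symbol in the platform annotation, updated by Entrez identifier through RefSeq for 34741. The authors' intensities were taken to log2, since they were found to be linear (2.89 to 19948). For each of 18193 genes the probe set of highest mean log2 intensity stood for the gene. The groups were tested by limma 3.58.1 (R 4.3.3; two-sided lmFit and eBayes without covariates), calling genes at a Benjamini-Hochberg p below 0.05. The procedure was tested on simulated data with independent noise on each array. That simulation does not cover the correlation between same-numbered arrays given below. Differences are MycGFP positive minus negative, and folds are their antilog.

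The members and lists were chosen with earlier results of these data known. Named by rule were all members, up to 4 called genes of each list of relatives or else its 2 largest differences above the mean array median, the 5 genes most like the members, and the 5 falls next in order. Outside this rule, values were also given for Ston1, Mpdz, Calcrl, Ramp2, Adm, Camk2d, Camk4, Camk2g and Timp3. Other relatives that did not pass were left unnamed, some with larger differences than these. Of 180 listed relatives, 161 were measured. The array numbers were checked for pairing: deviations from the group means correlated, over genes, with r = 0.38, 0.21 and 0.39 between arrays of 1 number and with r = -0.32 to -0.03 otherwise. On that ground, and with no label saying so, same-numbered arrays were treated as pairs in the within-number differences and in the replicate block. The main limma test was unpaired. Alternatives were the replicate block, each array left out, the mean of probe sets, no cross-hybridising probe sets, centring on the array median, no dim genes, 16 added before log2, a trended robust variance and array weights. Precision is limited by having 3 arrays in each group.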

Additional observations from a re-analysis of the deposited data

How the results depend on the processing

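The median log2 difference of the 9 members kept its direction in all 11 alternatives run for it, at -3.41 to -2.67. Since the members were picked as the largest falls on these arrays, that direction was built in and supports nothing further. Of single members, averaging probe sets moved Ston2 to -2.60, Patj to -2.98, Gabbr1 to -1.47, Camk2n1 to -1.54 and Adamts6 to -2.45 (5.48-fold), and adding 16 moved Patj to -2.78, Camk2n1 to -1.92 and Adamts6 to -1.84. In place of the 9 calls among relatives there were 0 to 5 when 1 array was left out. Without positive array 1 the only call was a gained one, Amotl1 (log2 difference 1.55, limma adjusted p = 0.0494). There were 0 without positive array 2, where unadjusted p was under 0.05 for 7 higher and 8 lower relatives. Over all genes the 1115 calls became 0 to 1038 when 1 array was left out. That array again gave 0, with unadjusted p under 0.05 for 2209 higher and 976 lower genes. With the array number as a replicate block there were 1401 calls over all genes and 7 among relatives. Centring each array on its median moved the median difference of all genes to -0.14, and the calls to 502 higher and 381 lower (56.9% higher) in place of 840 and 275 (75.3%). Camk2n2 did not pass then (adjusted p = 0.0682), nor with 16 added (0.0768) or array weights (0.0685). Single relatives were followed here only if called, or if among the 2 largest differences above the mean array median of a list without a call. Among these, differences that did not pass changed sign in 3 genes when 1 array was left out. The ranges were -1.92 to 0.72 for Itsn1 (above 0 without negative array 3), -1.35 to 0.38 for Fcho2 (without negative array 2) and -1.03 to 0.33 for Slc6a13 (without positive array 3). Itsn1 was at 0.10 without cross-hybridising probe sets. The cause of these changes was not tested. Dim signal limits the folds of Tm4sf5, Patj, Ramp3, Camk2n1 and Adamts6 in MycGFP positive cells.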
